A study of Drosophila melanogaster with 2 samples.

Results

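The basement membrane genes of the fruitfly were described in the mRNA library of adult flies. They are the 10 genes vkg, Col4a1, LanA, wb, LanB1, LanB2, trol, Ndg, SPARC and Pxn, which were found by their FlyBase symbols among 17698 genes in the expression table. They were picked for what their proteins do, though earlier results of these data were known when they were chosen. The library was prepared from total RNA of adult Drosophila melanogaster, and it stands alone, without a replicate and without a second condition. The labels name neither strain, sex, age nor the number of flies. The small RNA library of the same series was not used here.

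Basement membranes are thin sheets of extracellular matrix that line epithelia and wrap muscles, nerves, gut and fat body. Laminin trimers and a network of collagen IV form the sheet, perlecan and nidogen tie the networks together, and peroxidasin crosslinks collagen IV. In the fruitfly, fat body and haemocytes, the circulating blood cells, are known as sources of much of this matrix, which reaches other tissues through the haemolymph.

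All 10 genes had reads, and SPARC stood far above the rest. Levels are given in TPM, the relative abundance of a transcript among all transcripts of the library, corrected for transcript length, and were summed over the transcripts of a gene. SPARC, a collagen-binding glycoprotein, stood at 76.4 TPM. Col4a1 at 23.9 TPM, trol at 19.1 TPM and vkg at 17.3 TPM followed, then LanB1 at 9.44 TPM, Pxn at 7.64 TPM, LanB2 at 7.14 TPM, LanA at 4.32 TPM and Ndg at 3.12 TPM. The lowest was wb at 1.28 TPM, so that SPARC was 59.7 times as high as wb (95% interval 51.9 to 69.0). Intervals at 95% rest on the reads of each gene and cover counting error alone. They are exact for single genes and approximate for ratios of sums. They include neither the spread between flies, which 1 library cannot show, nor the uncertainty of how reads were shared among transcripts.

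In the order of the levels, only 1 of the 9 neighbouring pairs of genes was not apart beyond counting error. This was Pxn over LanB2, with a ratio of 1.07 (interval 0.959 to 1.19). The next closest were trol over vkg, at 1.10 (1.05 to 1.17), and LanB1 over Pxn, at 1.24 (1.12 to 1.37). By the most abundant transcript of each gene alone, trol stood at 7.53 TPM and vkg at 17.31 TPM, the other way round. The order as a whole was not run under other ways of summing. The widest step was SPARC over Col4a1, at 3.20 (2.998 to 3.42).

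**Figure D1:**
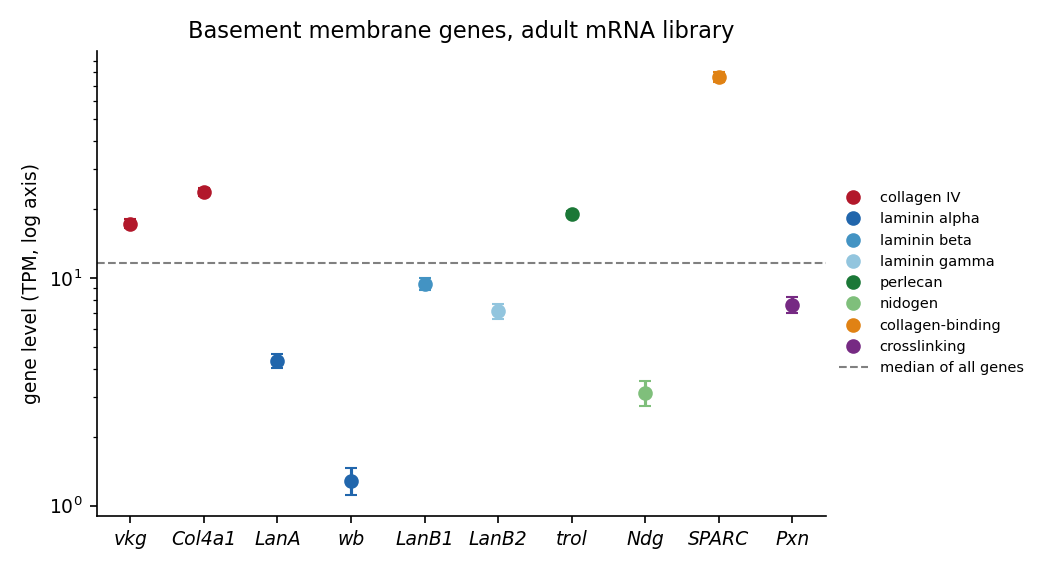
Level of the 10 basement membrane genes in the adult mRNA library (TPM, log axis), colored by the role of the protein, with exact 95% intervals for counting error. The dashed line is the median of all genes at 11.7 TPM. SPARC, Col4a1, trol and vkg lie above it and the other 6 genes below it.

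The library as a whole held 26179479 reads over 34736 transcripts. Markers of adult flies, chosen with earlier results of these data known, were abundant in it. The yolk protein genes Yp1, Yp2 and Yp3, expressed in females, lay between 543 and 913 TPM, and 5 genes of male accessory glands and testis lay between 334 and 629 TPM. Of 5 larval genes, Lcp1 and Sgs3 had no reads and the highest, Lsp1beta, stood at 2.62 TPM. Among the 7 haemocyte markers, crq stood at 91.6 TPM, srp at 14.0 TPM, Sr-CI at 4.74 TPM and NimC1 at 3.85 TPM. Hml followed at 3.02 TPM, He at 0.97 TPM and eater at 0.35 TPM. Among the 5 fat body genes, FASN1 stood at 88.4 TPM, Npc2b at 84.85 TPM and apolpp at 60.55 TPM. Lsp2 had 2.81 TPM and Fbp1 had 0.07 TPM, and 4 muscle genes lay between 23.6 and 321 TPM. In RNA of whole animals, few cells of a type and little RNA per cell cannot be told apart, so the cells that supplied the matrix transcripts were not identified here.

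Collagen IV is built from an alpha 1 chain, made by Col4a1, and an alpha 2 chain, made by vkg (viking). In mammals, the common protomer has more alpha 1 than alpha 2 chains. Both genes lie on chromosome arm 2L and point away from each other, vkg at 2L 5012144 to 5028191 on the minus strand and Col4a1 at 2L 5029609 to 5037279 on the plus strand. Between their outermost listed starts are 1417 bases. Positions are those of the expression table, which were the same as in the RefSeq gene table of Release 6 for 17395 of the 17660 genes that could be compared (98.5%).

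The vkg gene had 1866 reads and 17.3 TPM (16.5 to 18.1), and Col4a1 had 2317 reads and 23.9 TPM (22.9 to 24.9). The level of vkg was thus 0.725 of that of Col4a1 (0.682 to 0.771). This ratio depended on the minor transcripts of Col4a1. When only the most abundant transcript of each gene was taken, it was 1.005, with 17.31 TPM for vkg and 17.22 TPM for Col4a1.

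All reads of vkg were placed on FBtr0079036, which starts at 2L 5027445, inside the outermost listed start. FBtr0333540, which starts at 2L 5028191, and FBtr0333541, which has the same ends as FBtr0079036, had none. By counting error alone, a count of 0 allows up to 3 reads. This limit does not cover how reads were shared between FBtr0079036 and FBtr0333541. From the vkg start with reads to the nearest Col4a1 start with reads, the distance was 2163 bases.

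All 3 transcripts of Col4a1 had reads, and they end at different places. FBtr0079001, which ends at 2L 5036930, held 17.2 TPM or 72.1% of the level of the gene (70.3 to 73.9%). FBtr0079003, which ends 184 bases further, held 6.03 TPM or 25.3% (23.5 to 27.1%). FBtr0079002, which extends another 165 bases, held 0.62 TPM or 2.60% (2.01 to 3.31%). The level was thus lower the further the transcript reached. The starts of these transcripts lie within 7 bases of each other. Reads were assigned to annotated transcripts by the authors, so these ends were taken from the annotation and were not measured.

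Laminin is a trimer of 1 alpha, 1 beta and 1 gamma chain. The fruitfly has a single beta chain, from LanB1, a single gamma chain, from LanB2, and alternative alpha chains from LanA and wb (wing blister). LanB1 lies at 2L 7811438 to 7820771, LanB2 at 3L 9614914 to 9623980, LanA at 3L 6203831 to 6218022 and wb at 2L 14263027 to 14328262.

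At the mRNA level, the chains were not in equal amounts. The beta chain was the highest, with 994 reads and 9.44 TPM (8.86 to 10.1), followed by the gamma chain with 696 reads and 7.14 TPM (6.62 to 7.69). LanA had 854 reads and 4.32 TPM (4.04 to 4.62), and wb had 227 reads and 1.28 TPM (1.12 to 1.46). Together, the alpha chains came to 5.60 TPM. The alpha level was 0.593 of the beta level (0.544 to 0.647) and 0.784 of the gamma level (0.712 to 0.864). The gamma level was 0.756 of the beta level (0.686 to 0.834). None of these intervals included 1.

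The reads alone gave another order, since transcripts of the alpha chains are longer. LanA and wb together had 1081 reads, which is 1.09 times those of LanB1 and 1.55 times those of LanB2. The most abundant transcript was 11.7 kb long for LanA and 11.4 kb for wb, against 6.24 kb for LanB1 and 5.76 kb for LanB2. These lengths are the ones implied by the deposited reads and FPKM.

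LanA was the main alpha chain, at 3.38 times the level of wb (2.91 to 3.92). The share of wb in the alpha level was 22.9% (20.3 to 25.6%). It was 13.9%, and LanA was 6.17 times as high as wb, when only the most abundant transcript of each gene was counted, because the reads of wb were split among transcripts and LanA is listed with 1 transcript.

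Of the 6 listed transcripts of wb, 3 had reads, from starts that lie 37972 bases apart. From the upstream start at 2L 14263027 came 149 reads and 0.78 TPM, mostly on FBtr0302731 with 135 reads and 0.70 TPM, and otherwise on FBtr0305063 with 14 reads. From the downstream start at 2L 14300999 came 78 reads and 0.50 TPM, all on FBtr0302734, the shorter transcript at 9.22 kb. The upstream start thus held 65.6% of the reads (59.1 to 71.8%). The 3 other transcripts from the downstream start had no reads. The long gene also contains 4 other listed genes, among them CG32971 with 38 reads and lncRNA:CR43639 with 58 reads on the same strand, and whether they shared reads with wb was not tested.

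The beta and gamma chains were simpler. LanB1 was held at 93.0% (91.2 to 94.5%) by FBtr0079490, from the outer start, and at 6.99% (5.46 to 8.79%) by FBtr0079491, which starts 2916 bases downstream. All reads of LanB2 were on FBtr0076382, and FBtr0345031, which starts inside the gene, had none.

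**Figure D2:**
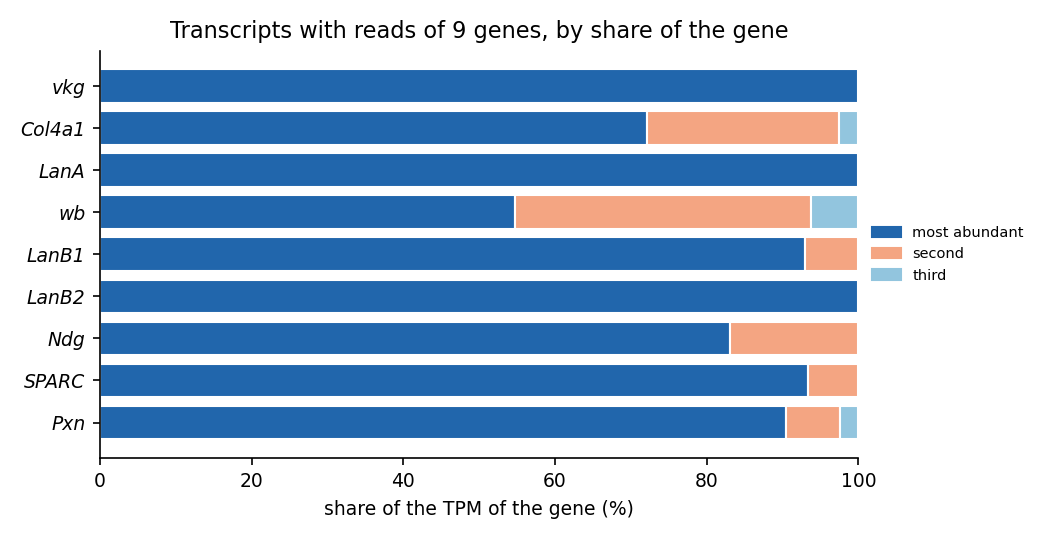
Share of the gene level (TPM, %) held by each transcript with reads, for the 9 genes other than trol. The most abundant transcript held all of vkg, LanA and LanB2 and over 80% of LanB1, Ndg, SPARC and Pxn. It held 72.1% of Col4a1 and 54.7% of wb.

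Collagen IV transcripts outweighed those of laminin. The sum of vkg and Col4a1 was 41.2 TPM, against 22.2 TPM for the 4 laminin genes, a ratio of 1.86 (1.77 to 1.95).

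Perlecan is a large heparan sulfate proteoglycan of the matrix, made by trol at X 2470460 to 2545410 on the minus strand. It had 4034 reads, the most of the 10 genes, and 19.1 TPM (18.5 to 19.7), which is 0.801 of the level of Col4a1 (0.761 to 0.843). With 22 listed transcripts, it was also the most complex. Reads were found on 11 of them and the other 11 had none.

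No single transcript dominated trol. FBtr0342811 held 7.53 TPM or 39.4% of the gene (37.9 to 40.9%), FBtr0342818 held 4.92 TPM or 25.7% (24.4 to 27.1%) and FBtr0342823 held 2.65 TPM or 13.9% (12.8 to 15.0%). FBtr0342809 followed at 1.59 TPM or 8.32%. The other transcripts were each below 1 TPM.

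The most abundant trol transcripts were short ones. Among the 10 transcripts with at least 10 reads, implied lengths ran between 12.0 and 14.3 kb. The 3 shortest, FBtr0342811, FBtr0342818 and FBtr0342809, held 73.5% of the level of the gene, and the other 7 held 26.5%. FBtr0342819 and FBtr0342806, the longest, stood at 0.35 and 0.10 TPM. Since most trol transcripts have the same start and end and share most of their sequence, the split among them is an estimate whose error is not covered by the intervals.

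By the ends of the annotated transcripts, 92.3% of the trol level, or 17.6 TPM, belonged to 9 transcripts with reads from the outermost start at X 2545410. FBtr0342810, which starts at X 2517647, held 0.79 TPM, and FBtr0342805, which starts at X 2505550, held 0.68 TPM. The earlier 3′ end at X 2476259, 5799 bases before the outermost one, belonged to FBtr0342823 alone.

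**Figure D3:**
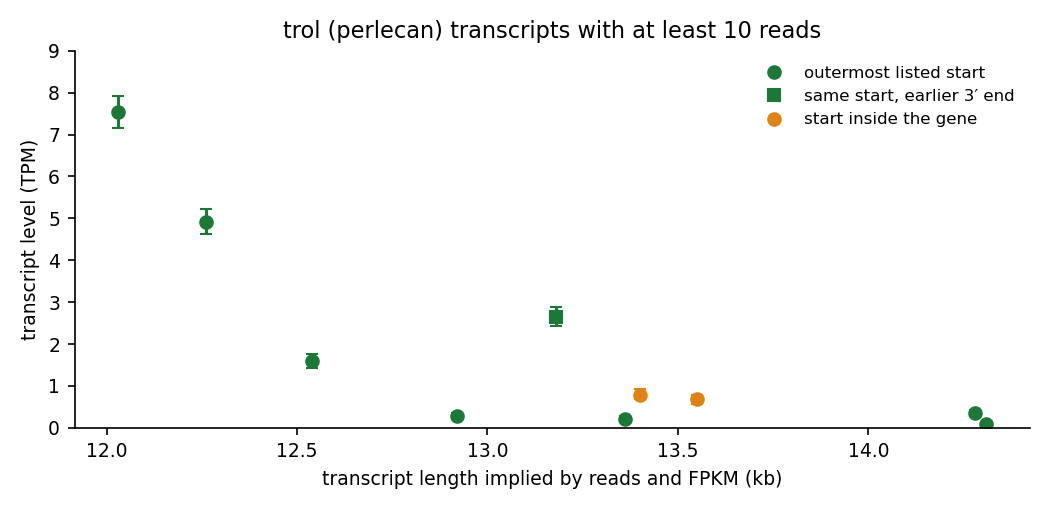
Level (TPM) of the 10 trol transcripts with at least 10 reads against their implied length (kb), with exact 95% intervals for counting error. The transcripts of 12.0 and 12.3 kb are highest at 7.53 and 4.92 TPM, and FBtr0342823, with its earlier 3′ end (square), follows at 2.65 TPM. The transcripts with a start inside the gene (orange) stay below 1 TPM.

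Nidogen, which binds both laminin and collagen IV, was low. Ndg, at 2R 10313891 to 10322104, had 246 reads and 3.12 TPM (2.74 to 3.54). This is 0.437 of the level of LanB2 (0.376 to 0.506), the laminin chain that carries the nidogen-binding site in mammals. trol was 6.13 times as high as Ndg (5.38 to 6.995). FBtr0088349 held 83.01% of Ndg (77.8 to 87.4%), and FBtr0339459, whose end lies 204 bases further, held 17.0%. Another gene, CG34222, lies on the opposite strand within Ndg at 2R 10319844 to 10320500, with 533 reads and 54.0 TPM. No source used here says whether the counting used strand, and the part of these reads in the value of Ndg was not tested.

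SPARC binds collagen, and in the fruitfly it is needed for a proper distribution of collagen IV. The gene lies at 3R 26869238 to 26871995 on the minus strand. It had 1475 reads and 76.4 TPM (72.6 to 80.4). The outer start at 3R 26871995, used by FBtr0085094, held 71.3 TPM or 93.3% (91.9 to 94.6%). FBtr0334309, which starts 1428 bases downstream, held 5.10 TPM or 6.67% (5.45 to 8.07%).

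The lead of SPARC was one of level per length and not of reads. SPARC had fewer reads than trol, Col4a1 or vkg, but its main transcript is only 1.14 kb long. It held 45.1% of the summed TPM of the 10 genes and 11.1% of their reads. For trol the shares were 11.3% of the TPM and 30.3% of the reads.

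Pxn encodes peroxidasin, the enzyme that forms the sulfilimine bonds between collagen IV protomers, and it is also known as a haemocyte gene. It lies at 3L 2601455 to 2630064 and had 619 reads and 7.64 TPM (7.05 to 8.27), or 0.320 of the level of Col4a1 (0.292 to 0.350). FBtr0072954, from a start at 3L 2629371, held 6.91 TPM or 90.4% (87.8 to 92.7%). The start at 3L 2630064, 693 bases upstream, was shared by 4 transcripts with 56 reads in all, of which FBtr0072951 had 47 and FBtr0072950 had 9. FBtr0072952 and FBtr0072953 had none. Other genes overlap Pxn, of which CG16986, with 568 reads, shares 82 bases with it at the 3′ end on the opposite strand, and lncRNA:CR45981, with 272 reads, lies within it on the same strand. Their part in the value of Pxn was not tested.

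Of the 48 transcripts listed for the 10 genes, 29 had reads and 19 had none. Those without reads belonged to trol (11), wb (3), vkg (2), Pxn (2) and LanB2 (1). Among the 9 genes with several transcripts, the most abundant one held over 80% of the level in 6. The exceptions were Col4a1, wb and trol.

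In adult flies, most basement membrane genes were below the median of protein-coding genes, which only Col4a1 and SPARC exceeded. All 10 reached 1 TPM, as did 75.9% of all genes, and 4 reached 10 TPM, against 51.9% of all genes and 64.1% of protein-coding genes. None was among the top 10% of genes, which begins at 99.4 TPM. The median of the 10 genes was 8.54 TPM, against 11.7 TPM for all genes and 22.2 TPM for the 13930 protein-coding genes. By TPM, percentiles among all genes ran between 26.5 for wb and 85.9 for SPARC. Among protein-coding genes alone, they ran between 15.5 for wb and 82.4 for SPARC, with Col4a1 next at 51.9. The 10 genes together made up 0.0170% of all TPM.

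By reads, the same genes ranked higher, and 8 of 10 lay above the median of 295 reads per gene, which 50% of all genes exceed. Their share of all reads was 0.0509%. The percentile by reads was above that by TPM in 9 of the 10, with SPARC as the exception, and for trol it was 91.2 by reads and 57.2 by TPM. The transcripts of these genes are long. For 9 of the 10, the most abundant transcript was among the longest 10% of all genes with at least 10 reads on theirs, by definition 10% of the 14022 genes compared. The median implied length was 5999 bases for the 10 genes and 1575 bases for all genes.

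**Figure D4:**
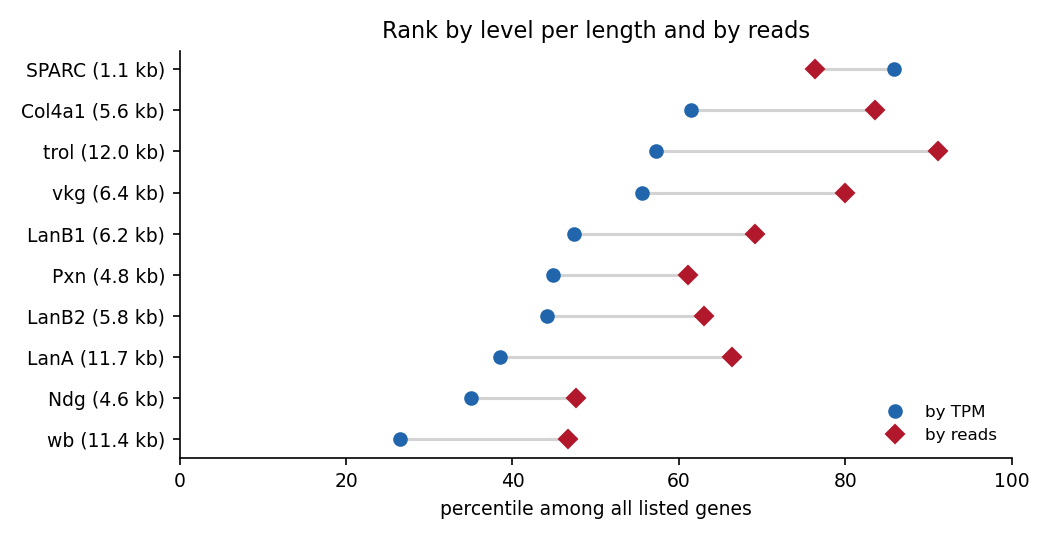
Percentile of each basement membrane gene among all 17698 genes, by TPM (circles) and by reads (diamonds), with the implied length of its most abundant transcript in kb. All genes except SPARC stand higher by reads than by TPM, with trol at 91.2 and 57.2.

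Genes that make and secrete collagen had a higher median level than the matrix genes themselves. In a list of 10 such genes it was 70.0 TPM, against 8.54 TPM for the basement membrane genes. All reached 1 TPM and 9 reached 10 TPM, where 51.9% of all genes and 64.1% of protein-coding genes do. Pdi, a protein disulfide isomerase that is also a subunit of prolyl 4-hydroxylase, stood at 416 TPM. Sar1, a GTPase of the vesicles that leave the endoplasmic reticulum, stood at 236 TPM, and Rab10, which directs matrix proteins to the basal side of epithelial cells, at 132 TPM. The lowest was PH4alphaMP at 1.37 TPM. The hydroxylases that act on collagen, chosen after their values had been seen, were the lowest of the list beside PH4alphaMP. Plod, a lysyl hydroxylase, had 26.9 TPM (25.4 to 28.5), and PH4alphaEFB, a prolyl hydroxylase, had 10.1 TPM (9.15 to 11.2).

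Receptors of the matrix were spread widely. Among 10 receptor genes, 8 reached 1 TPM and 5 reached 10 TPM, shares near the 75.9% and 51.9% of all genes. Their median was 11.5 TPM, against 11.7 TPM for all genes. Both the share at 10 TPM and the median were below those of protein-coding genes, at 64.1% and 22.2 TPM. Sdc, the syndecan, stood at 84.6 TPM, mys, the main integrin beta chain, at 58.2 TPM and Dg, the laminin receptor dystroglycan, at 28.2 TPM. ItgaPS5 was the lowest at 0.19 TPM. The 9 genes of integrin-linked adhesion all reached 10 TPM, where 51.9% of all genes and 64.1% of protein-coding genes do. Their median was 68.7 TPM. Pax (paxillin) at 162 TPM, Zyx (zyxin) at 91.7 TPM and stck (PINCH) at 81.9 TPM led them, and Fit2, a kindlin, was the lowest at 18.8 TPM.

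Proteases of the matrix and their inhibitors had a median of 8.50 TPM. All 7 reached 1 TPM and 3 reached 10 TPM, against 75.9% and 51.9% of all genes. Of protein-coding genes, 64.1% reached 10 TPM, and their median was 22.2 TPM. Timp, an inhibitor of metalloproteinases, stood at 55.3 TPM, Mmp1 at 25.0 TPM and Ppn (papilin), a secreted matrix protein related to ADAMTS proteases, at 14.8 TPM. AdamTS-B was the lowest at 2.63 TPM. Of 11 other matrix genes, 10 reached 1 TPM and 5 reached 10 TPM, with a median of 9.87 TPM. The share at 10 TPM was near that of all genes and below that of protein-coding genes. They were led by fon, a clotting protein of the haemolymph, at 46.2 TPM, by the glypican dlp at 33.1 TPM and by glutactin (Glt) at 31.3 TPM, and prc, a collagen-like protein of the heart, was the lowest at 0.22 TPM. The lysyl oxidases, which crosslink collagens in mammals, were below Pxn, with Loxl2 at 3.95 TPM and Loxl1 at 1.30 TPM.

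**Figure D5:**
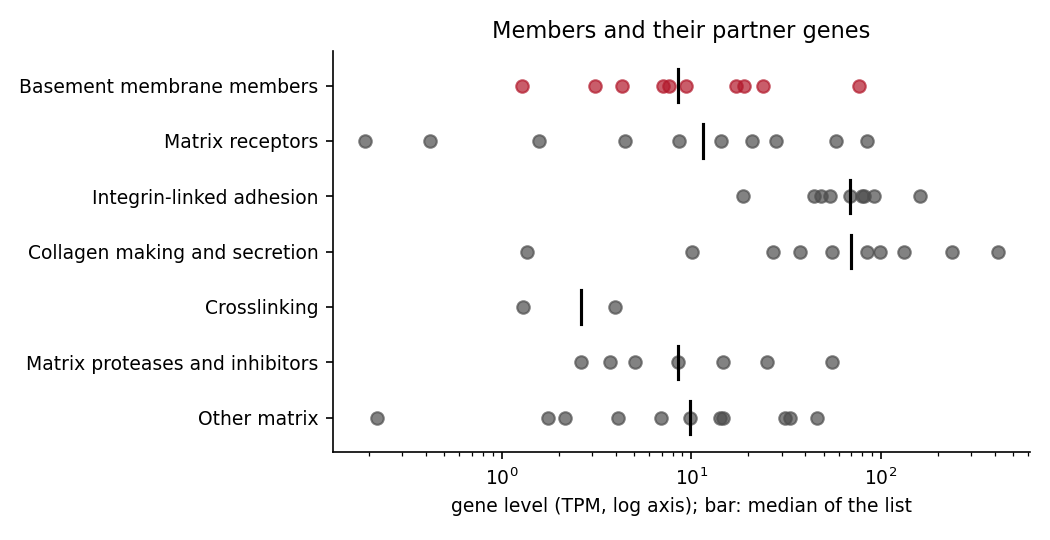
Levels (TPM, log axis) of the 10 basement membrane genes and of their partner genes by list, 1 point per gene, with the median of each list as a bar. The medians of collagen making and secretion (70.0 TPM) and of integrin-linked adhesion (68.7 TPM) lie above that of the basement membrane genes (8.54 TPM). Pxn is drawn among the basement membrane genes alone.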

How the data were processed

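The submitters' processing notes list CASAVA and HISAT2. Nothing used here names the counting tool, the build or the annotation. The deposited table gives, per transcript, estimated counts (whole numbers, taken as rounded expected counts), TPM and FPKM, all made by the authors. Here, TPM and reads were summed over the transcripts of a gene. TPM corrects for length, so that a long and a short gene can be compared, but a level depends on how the authors shared reads among transcripts. Transcript lengths were derived from reads and FPKM, scaled on 474 unspliced transcripts.

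Symbols were found by ID for 17559 genes, and for 4 genes of the lists (AdamTS-A, Pdi, scb, Tango1) by the same start and end in RefSeq. With 1 library, no test was made. Poisson intervals of levels and binomial (Clopper-Pearson) intervals of shares and ratios are exact at 95% for the reads of single genes. Ratios of sums used the mean reads per TPM of each side, so their intervals are approximate. Intervals of levels and of some single-gene ratios were checked on counts simulated with counting error alone. This check could not cover the error of sharing reads among transcripts. In each partner list, the 3 highest and the lowest gene were named, and marker genes were given as levels or ranges. Members and lists were chosen with earlier results of these data known. Python 3.11.15, pandas 2.3.3 and scipy 1.17.1 were used.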

Additional observations from a re-analysis of the deposited data

How the results depend on the processing

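TPM over FPKM was nearly constant, at 1.588 to 1.59 for transcripts of at least 10 TPM. Using FPKM could thus change no result beyond rounding. Among the 10 genes, leaving out transcripts under 10 reads took reads from trol and Pxn alone. Neither gene enters the ratios or the share among the 9 results, so these could not move. The median became 8.445 TPM, within counting error. Under each of 6 alternatives, 0 of the 10 genes were in the top 10%. With FPKM, or with genes below 1 TPM left out, this count could not have differed. Among protein-coding genes, SPARC was the highest of the 10, at percentile 82.4. With only the most abundant transcript of each gene, vkg over Col4a1 was 1.005 in place of 0.725, the share of wb 13.9% in place of 22.9%, collagen IV over laminin 1.65 in place of 1.86 and the median of the 10 genes 7.34 TPM in place of 8.54 TPM, since this leaves out minor transcripts. With the reads of a gene divided by its longest transcript with reads, vkg over Col4a1 was 0.773 and the median 9.32 TPM. For LanA plus wb over LanB2 and LanA over wb, the alternatives were chosen after the data had been seen. With only the most abundant transcripts, the first was 0.703 in place of 0.784 and the second 6.17 in place of 3.38. The ratios of alpha to beta and of gamma to beta moved by less than counting error under every alternative run. No paired analysis was possible because there is 1 mRNA library, and no replicate could be left out.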

Other observations

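Among the integrin chains, the level of mys was 1.31 times the summed level of the 5 alpha chains (approximate 95% interval for counting error 1.25 to 1.37). The alpha chains mew, if, scb, ItgaPS4 and ItgaPS5 came to 44.5 TPM. Of these, scb stood at 20.8 TPM, if at 14.4 TPM and mew at 8.67 TPM. Itgbn, the other beta chain, stood at 4.47 TPM, and Ddr, a receptor of the collagen-binding family in mammals, at 1.57 TPM. Among core proteins that carry heparan sulfate, Sdc was the highest of the 4 measured at 84.6 TPM, and trol at 19.1 TPM lay between the glypicans dlp at 33.1 TPM and dally at 14.7 TPM. The netrins NetA at 1.76 TPM and NetB at 2.16 TPM, which share domains with laminins, were above wb at 1.28 TPM. These genes and sums were chosen after their values had been seen.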
